A study of Mus musculus with 28 samples.

Results

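S100 proteins are small EF-hand proteins that bind calcium and then dock onto other proteins, inside the cell on annexins, myosins and channels, and outside it on receptors of inflammation. *S100a4*, *S100a6*, *S100a10* and *S100a11* are abundant in fibroblasts, macrophages and other migrating or dividing cells. *S100a8* and *S100a9* form calprotectin, the main cytosolic protein of neutrophils. *S100b* is best known from glia, Schwann cells, adipocytes and cartilage, and *S100a1* is the member that striated muscle fibers express most.

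The expression of 9 S100 genes was followed in TA muscle of 28 mice: *S100a4*, *S100a6*, *S100a8*, *S100a9*, *S100a10*, *S100a11*, *S100a13*, *S100a16* and *S100b*. Each is present in the count tables of both cohorts, among 55416 genes in cohort G and 55359 in cohort F. The set was chosen by measured values of these same mice: *S100a4* was selected on its tamoxifen response by genotype, and *S100a8* and *S100a9* on their rise and fall with neutrophil genes. The values of *S100a4* in every comparison, and the relation of *S100a8* and *S100a9* to neutrophil genes, are therefore described without a test. All 9 genes passed the filter on low counts in cohort G, and 8 passed it in cohort F, where *S100a8* was too low.

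Cohort G holds 4 groups of 4 mice: WT on placebo, WT on tamoxifen (WT treated), Dnm2 S619L/+ on placebo (disease) and Dnm2 S619L/+ on tamoxifen (disease treated). Dnm2 S619L/+ mice carry 1 copy of a dynamin 2 point mutation in every tissue. Cohort F holds 3 groups of 4 mice: WT on placebo, Bin1 mck-/- on placebo (disease) and Bin1 mck-/- on tamoxifen (disease treated). In Bin1 mck-/- mice *Bin1*, which encodes the membrane-bending protein amphiphysin 2, is deleted by Cre under a muscle creatine kinase promoter, which is active in muscle fibers. All mice were 8 weeks old on the C57BL/6N background, and tamoxifen, which binds the estrogen receptor, was given in the diet. The library protocol also differed, with an input of 300 ng and a fragmentation time of 2 min in cohort G against 350 ng and 8 min in cohort F. Model and protocol thus change together, and each cohort was tested alone.

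Counts on genes ranged from 15586333 to 109710886 per mouse in cohort G and from 24671835 to 35136327 in cohort F. Levels are CPM, a gene's reads as a share of those on all genes, with library sizes scaled by TMM. The TMM factors of the 4 WT mice of cohort G lay between 0.812 and 0.9, below the 0.963 to 1.16 of the other 12. Without these factors the median log2 fold change of all genes moved by 0.26 for disease against WT and by 0.27 for tamoxifen in WT mice of cohort G, and the share of higher genes among those called rose from 55.2% to 91.1% and from 57.1% to 92.0%. For the other comparisons the median moved by 0.08 (tamoxifen in Dnm2 disease, 63.1% to 74.4% higher), 0.34 (Dnm2 disease treated against WT, 54.6% to 93.2%), 0.13 (Bin1 disease against WT), -0.16 (tamoxifen in Bin1 disease, 48.5% to 21.0%), -0.20 (interaction) and -0.03 (Bin1 disease treated against WT). A call is an adjusted p under 0.05 in edgeR's quasi-likelihood test over all genes, and ± after a log2 fold change is its standard error, while ± after a level is the SD over 4 mice. Intervals are 95% intervals of the log2 fold change from the same fit. The 10 muscle fiber markers, such as *Acta1* and *Ckm*, summed to 88760 CPM or more in every mouse.

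Most of these genes lie in 1 cluster on chromosome 3, and *S100b* lies on chromosome 10. The sequences upstream of *S100a4*, *S100a8* and *S100a9* are shown because these 3 genes varied most between mice, and because *S100a8* and *S100a9* were high in the same mice. They are RefSeq windows of GRCm38.p6 that end before the first annotated exon, on the strand of the gene, and capitals mark matches to the motifs searched. A window was found for 8 of the 9 genes, with none for *S100a10*.

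*S100a4*, chr3:90603520-90603769, plus strand: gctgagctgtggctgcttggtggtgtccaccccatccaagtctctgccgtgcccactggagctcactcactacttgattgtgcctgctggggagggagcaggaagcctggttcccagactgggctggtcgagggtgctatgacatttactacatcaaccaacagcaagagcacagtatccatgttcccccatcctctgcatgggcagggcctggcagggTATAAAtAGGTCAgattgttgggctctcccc

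*S100a8*, chr3:90668821-90668977, plus strand: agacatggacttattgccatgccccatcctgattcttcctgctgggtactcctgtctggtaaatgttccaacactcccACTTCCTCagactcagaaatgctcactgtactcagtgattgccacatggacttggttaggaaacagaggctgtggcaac

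*S100a9*, chr3:90695722-90695971, minus strand: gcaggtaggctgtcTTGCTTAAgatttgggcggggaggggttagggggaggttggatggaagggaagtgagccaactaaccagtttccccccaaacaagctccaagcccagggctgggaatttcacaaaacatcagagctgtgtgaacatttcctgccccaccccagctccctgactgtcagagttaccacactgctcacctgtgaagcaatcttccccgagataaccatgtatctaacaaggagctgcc

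The 6 motifs were searched on both strands in the 250 bases before each of the 32851 starts in the RefSeq table. The TATA box, TATAAA, occurred in 12.4% of the windows, among them those of *S100a4* and *S100a8*, in the latter beyond the stretch printed, which stops where an annotated exon begins. The C/EBP motif TTGCNNAA, for a family of transcription factors not limited to myeloid cells, occurred in 9.56%, and the window of *S100a9* held it once. GAGGAAGT, bound by the myeloid factor PU.1, occurred in 2.44% and stood on the opposite strand upstream of *S100a8*. The AP-1 motif TGANTCA was found in 6.75% of windows and in those of *S100a11* and *S100a16*. The full estrogen response element, GGTCA and TGACC with 3 bases between them, was in 0.0639% of windows and in none of these genes. Its half-site AGGTCA was in 14%, among them *S100a4*, where it follows the TATA box, *S100a11* and *S100a16*. The matches are letters in these windows and no measure of binding.

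**Figure D1:**
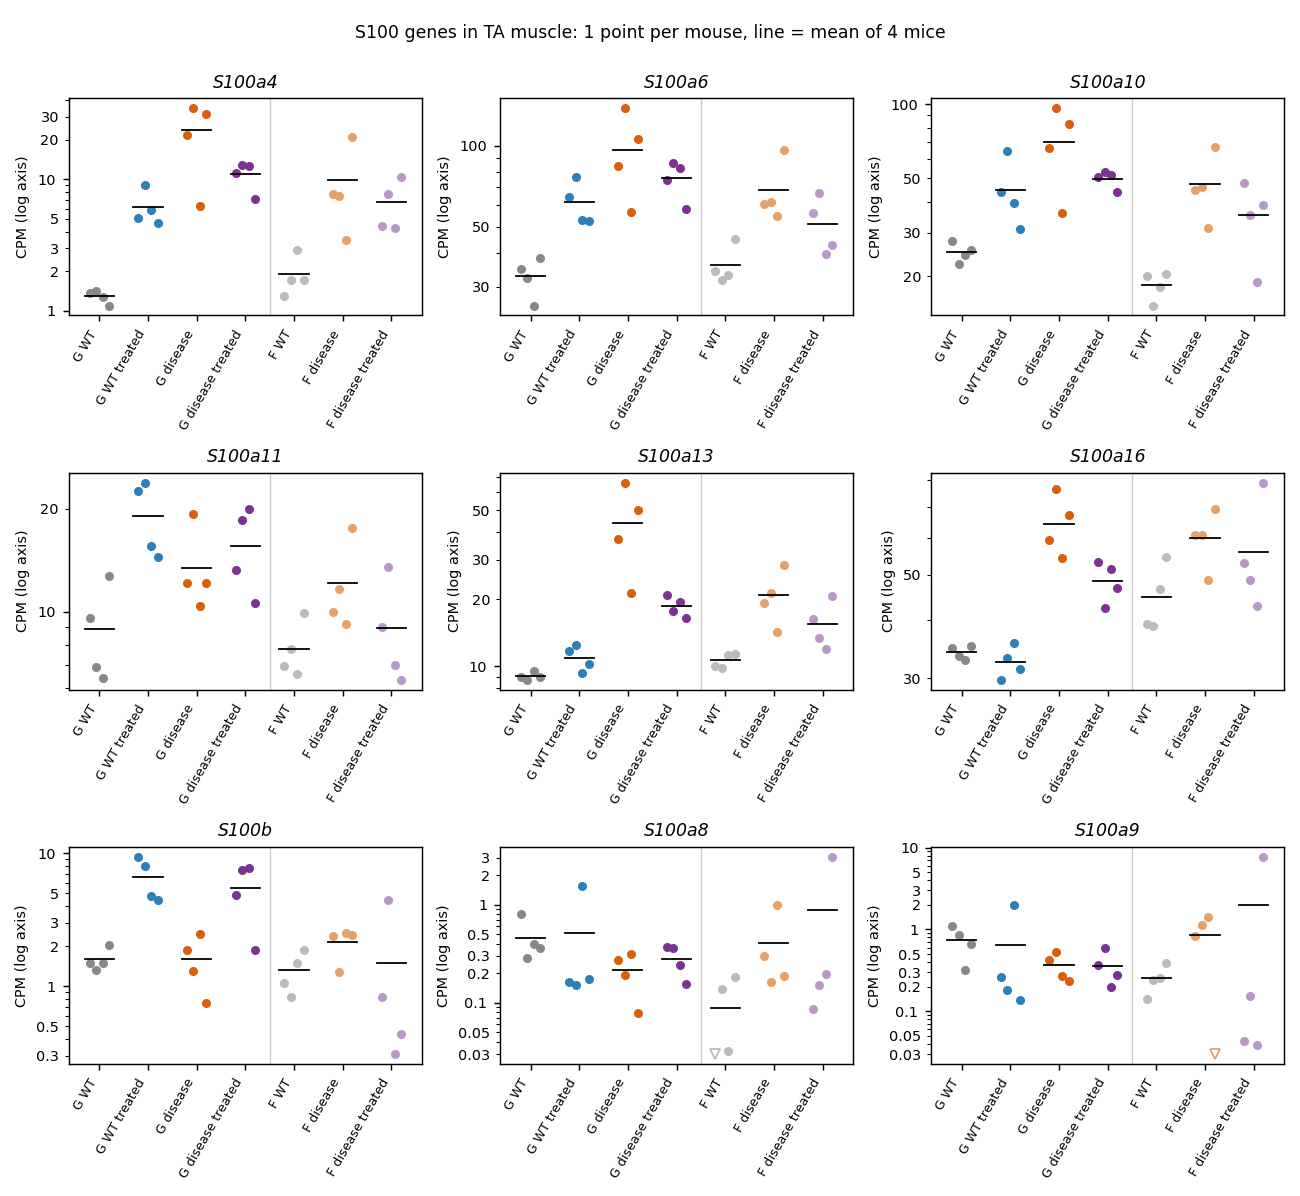
CPM of the 9 genes, on log axes that differ between panels, for each of 28 mice in 7 groups; black lines are means of 4 mice and open triangles are mice with no read. *S100a4*, *S100a6*, *S100a10* and *S100a13* stand higher in disease than in WT mice of each cohort, and single mice carry the high values of *S100a8* and *S100a9*.

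Compared per kilobase of exon, so that genes can be ranked, the order in WT mice of cohort G began with *S100a6* at 24.0 ± 3.98 CPM per kb (SD, n = 4), *S100a16* at 21.1 ± 0.696 and *S100a10* at 20.6 ± 1.86. These neighbours did not differ beyond their spread. *S100a11* followed at 17.4 ± 5.70 and *S100a13* at 12.7 ± 0.503. *S100a4* at 2.2 ± 0.243, *S100a9* at 1.41 ± 0.634, *S100b* at 1.07 ± 0.213 and *S100a8* at 0.665 ± 0.342 were the lowest. *S100a1*, the muscle member outside the set, reached 170 ± 19.7 CPM per kb in the same mice. In disease mice of cohort G the order of the first 4 was *S100a6* at 70.2 ± 24.9, *S100a13* at 61.2 ± 26.7, *S100a10* at 58.1 ± 21.4 and *S100a4* at 40.6 ± 22.0 CPM per kb, again with overlapping spreads. The level of *S100a4* may be understated: 51.7% of its exon bases are shared with the overlapping gene model Gm42674 on the same strand in GENCODE M21, which had 0 reads in all 28 mice, and how the counting treated reads there is not given.

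The first comparison asks how these genes differ between untreated Dnm2 S619L/+ and WT muscle. Of the 8 genes tested, 4 rose and none fell: *S100a13*, *S100a6*, *S100a10* and *S100a16*. Among all genes tested, 12.1% were called higher. Of the 8 genes tested, 6 had a log2 fold change above 0, among them *S100b* at 0.0095, and the median over all genes was 0.02.

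*S100a4*, a marker of fibroblasts and macrophages whose protein binds non-muscle myosin, was measured at 1.37, 1.41, 1.26 and 1.09 CPM in the WT mice of cohort G. The 4 disease mice had 21.9, 34.9, 6.29 and 31.8 CPM. Mouse 3 was thus well below the other 3 disease mice, and still above every WT mouse. The log2 fold change was 4.14. It is given as a description, since both groups are part of the response on which the gene was chosen.

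*S100a13*, whose protein takes part in the release of FGF1 from cells, stood at 8.97, 8.71, 9.56 and 8.97 CPM in WT and at 37.3, 66.4, 21.4 and 49.9 CPM in disease mice. The groups did not overlap, and mouse 3 was again the lowest of its group. Its log2 fold change was 2.27 ± 0.24 (adjusted p = 3.3e-05, edgeR).

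*S100a6*, or calcyclin, gave 34.9, 32.4, 25.5 and 38.4 CPM in WT and 84.3, 137.5, 56.7 and 105 CPM in disease mice, a log2 fold change of 1.54 ± 0.23 (adjusted p = 0.00033, edgeR). *S100a10*, the partner of annexin A2 in a complex at the cell membrane, gave 27.7, 22.3, 24.3 and 25.5 CPM in WT and 66.1, 96.1, 36.2 and 83.2 CPM in disease mice, a log2 fold change of 1.49 ± 0.25 (adjusted p = 0.00092, edgeR). Both genes kept the order of the disease mice seen for *S100a13*, with mouse 2 highest and mouse 3 lowest. *S100a16*, a widely expressed member that binds calcium weakly, lay between 32.8 and 35.2 CPM in WT and between 54.3 and 76.5 CPM in disease mice, a log2 fold change of 0.92 ± 0.11 (adjusted p = 5.7e-05, edgeR). It had the narrowest groups of these genes.

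The other 4 genes tested did not pass the test in this comparison. *S100a11*, which binds annexin A1, was at 9.60, 6.87, 6.40 and 12.7 CPM in WT and at 12.1, 19.3, 10.4 and 12.1 CPM in disease mice, with overlapping groups (log2 fold change 0.58 ± 0.27, adjusted p = 0.13, edgeR). *S100b* had a mean of 1.59 ± 0.32 CPM in WT and 1.61 ± 0.75 CPM in disease mice (SD, n = 4 each), and its interval ran from -0.87 to 0.89. *S100a8* and *S100a9* had log2 fold changes of -0.98 and -0.97 on counts of at most 109 reads per mouse.

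Markers of other cells moved in the same mice. Of 10 monocyte and macrophage markers 4 were called higher in disease than WT mice of cohort G, and their sum ranged from 84.2 to 138 CPM in WT and from 117 to 432 CPM in disease mice. The 8 fibroblast markers, 1 of them called higher, summed to 545 to 627 CPM and 661 to 1019 CPM. Of 5 tendon markers 3 were called higher (47.4 to 242 CPM against 255 to 485 CPM), and of 5 endothelial markers 4 were called lower (491 to 753 CPM against 171 to 481 CPM). The part of these cells in the S100 changes was not tested. In whole muscle, more cells of a type and more RNA per cell cannot be told apart.

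**Figure D2:**
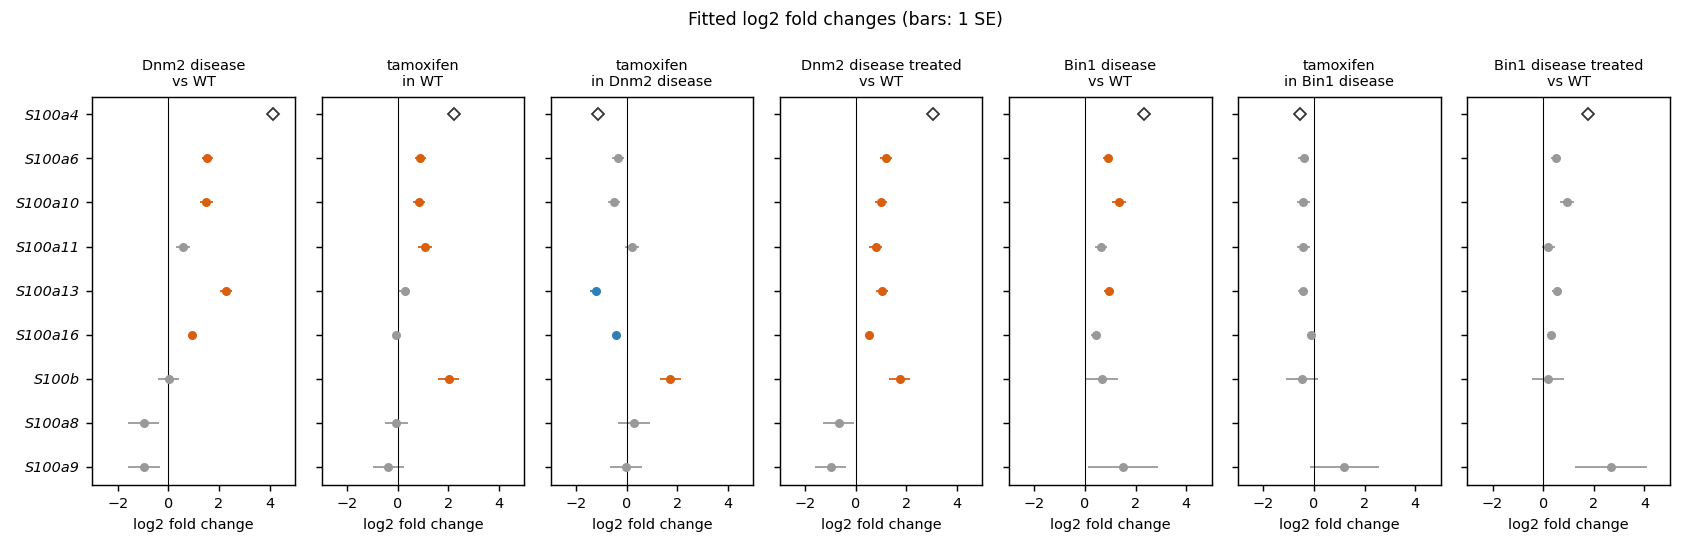
Fitted log2 fold changes of the 9 genes in 7 comparisons, with bars of 1 SE; orange and blue mark genes called higher and lower, grey marks genes not called, and open diamonds mark *S100a4*, which is described without a test. *S100a13* and *S100a16* are orange for Dnm2 disease against WT and blue for tamoxifen in Dnm2 disease, and no gene is called in the last 2 panels.

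Tamoxifen in WT mice was compared with placebo in the same cohort. Of the 8 genes tested, 4 rose and none fell: *S100b*, *S100a11*, *S100a6* and *S100a10*. Over all genes 15.8% were called higher. *S100a13* and *S100a16*, which rose in Dnm2 disease mice, did not pass the test here.

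*S100b* was at 1.49, 1.33, 1.5 and 2.05 CPM in WT and at 9.42, 8.00, 4.75 and 4.45 CPM in WT treated mice. Every treated mouse was above every untreated one. The log2 fold change was 2.02 ± 0.41 (adjusted p = 0.0025, edgeR).

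*S100a11* reached 22.5, 23.9, 15.5 and 14.5 CPM in WT treated mice, above all 4 WT mice, with a log2 fold change of 1.08 ± 0.27 (adjusted p = 0.0077, edgeR). *S100a6* reached 64.5, 76.6, 53.1 and 52.6 CPM, also without overlap, with a log2 fold change of 0.91 ± 0.22 (adjusted p = 0.0077, edgeR). *S100a10* reached 43.9, 64.6, 39.6 and 31.1 CPM, likewise above all 4 WT mice, with a log2 fold change of 0.84 ± 0.25 (adjusted p = 0.020, edgeR). These 3 genes are named because they were called. For this and the other comparisons, the share of all genes whose groups do not overlap was not computed. Without WT treated mouse 2, the highest of its group for *S100a10*, the log2 fold change of that gene fell to 0.61 and was no longer called, and the same held without WT mouse 2, at 0.80, and with no filter on low counts, at 0.84. *S100a13* lay at 9.32 to 12.5 CPM in WT treated mice, with an interval from -0.22 to 0.78, and *S100a16* at 29.8 to 35.7 CPM, with an interval from -0.29 to 0.16. With library sizes alone *S100a16* turned from -0.07 to 0.21, while the median of all genes moved from -0.04 to 0.24.

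*S100a4*, chosen for this response, was at 5.06, 9.14, 5.88 and 4.69 CPM in WT treated mice, each above the WT mice, a log2 fold change of 2.22. In Dnm2 disease treated mice it was at 11.2, 12.9, 12.6 and 7.10 CPM, a log2 fold change of -1.11 against untreated disease mice. Disease mouse 3, at 6.29 CPM, lay below all 4 treated disease mice, and the other 3 lay above them. The difference of the 2 responses was -3.33 on the log2 scale. Disease treated mice remained above all WT mice, with a log2 fold change of 3.03.

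Tamoxifen in Dnm2 S619L/+ mice was compared with placebo. *S100a13* and *S100a16* fell and *S100b* rose among the 8 genes tested, where 3.05% of all genes were called lower and 5.22% higher. *S100a13* went to 20.9, 17.7, 19.4 and 16.4 CPM, each below all 4 untreated disease mice and above all WT mice, a log2 fold change of -1.23 ± 0.23 (adjusted p = 0.0071, edgeR). *S100a16* went to 53.2, 42.4, 51.4 and 46.8 CPM, likewise between the groups, a log2 fold change of -0.41 ± 0.11 (adjusted p = 0.028, edgeR). *S100b* reached 4.84, 7.49 and 7.74 CPM in disease treated mice 1 to 3 and 1.88 CPM in mouse 4, a log2 fold change of 1.73 ± 0.41 (adjusted p = 0.020, edgeR). Disease treated mouse 4 was thus within the range of untreated disease mice, 0.751 to 2.49 CPM.

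These 3 calls rested on the mice and the fit used. None of the 8 genes was called in a fit of the disease and disease treated mice alone, where 30 of all 14310 genes were. Only 1 was called without disease mouse 2, disease mouse 4, disease treated mouse 2 or disease treated mouse 3. Calls over all genes fell as well, from 1277 to 551, 767, 406 and 368 in that order. With the replicate number as a block, *S100a16* was no longer called and 2 genes were. *S100a16* was also not called with library sizes alone, at -0.32, or with no filter on low counts, at -0.41.

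*S100a6* was at 74.8, 86.4, 82.8 and 58.4 CPM in Dnm2 disease treated mice, within the range of untreated disease mice, with an interval from -0.81 to 0.12. *S100a10* was at 50.6, 52.8, 51.6 and 43.8 CPM and its interval ran from -1.02 to 0.02, with an adjusted p of 0.21 (edgeR). Without disease mouse 3 *S100a10* was called, at a log2 fold change of -0.72. The treated mice of both genes were closer to each other than the untreated disease mice were.

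Whether the response to tamoxifen differed by genotype was tested with an interaction term in cohort G, for the 8 genes other than *S100a4*. None was called by edgeR, while 0.259% of all genes were, and 5 of the 8 had an unadjusted p under 0.05. DESeq2 called *S100a6*, *S100a10* and *S100a13*, among 327 of all 15439 genes, against 40 by edgeR. The largest interaction was that of *S100a13*, at -1.51 ± 0.33 on the log2 scale (adjusted p = 0.079, edgeR). *S100a10* followed at -1.34 ± 0.35 and *S100a6* at -1.25 ± 0.31. Without disease mouse 3, where edgeR called 293 of all 15692 genes, the same 3 genes were called, with interactions of -1.73, -1.56 and -1.43. *S100b* had an interaction of -0.30 ± 0.58, with an interval from -1.52 to 0.93.

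Disease treated mice of cohort G were also set against untreated WT mice, the same WT mice as above. *S100a6*, *S100a10*, *S100a11*, *S100a13*, *S100a16* and *S100b* were higher, 6 of the 8 tested, with 15.8% of all genes called higher. The log2 fold changes were 1.2 ± 0.22 for *S100a6*, 0.99 ± 0.25 for *S100a10* and 1.04 ± 0.24 for *S100a13*. They were 0.79 ± 0.27 for *S100a11*, 0.51 ± 0.11 for *S100a16* and 1.74 ± 0.41 for *S100b*. Adjusted p-values by edgeR ran from 0.0015 to 0.036, the last being that of *S100a11*, which was not called with no filter on low counts, in a fit of only the groups compared, under the replicate block or without WT mouse 1, 2 or 3 or disease treated mouse 2 or 3. In these treated mice 7 of 10 macrophage markers and 4 of 8 fibroblast markers were called higher than in WT, as were 4 of 5 tendon markers. Of 6 osteoclast markers 5 were called higher and 1 lower. Of 4 cartilage markers that passed the filter 2 were called higher and 1 lower, and of 6 satellite cell and regeneration markers 3 and 1. Called lower were also 5 of 10 muscle fiber markers and 2 of 5 endothelial markers. The part of these cells in the 6 S100 genes was not tested.

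The bone, cartilage and tendon genes that differed between these mice are given beside *S100b*. The 7 osteoblast and osteocyte markers, among them *Ibsp*, which encodes bone sialoprotein, summed to 29.7 to 57.0 CPM in WT and to 698, 925, 296 and 368 CPM in WT treated mice of cohort G. In disease treated mice they summed to 183, 411 and 533 CPM in mice 1 to 3 and to 47.4 CPM in mouse 4, and in untreated disease mice to 11.6 to 18.8 CPM. The 3 treated disease mice high in bone markers were the 3 high in *S100b*. Other lists set the same mice above mouse 4. Osteoclast markers summed to 192, 226 and 554 CPM against 20.7 CPM, and fibroblast markers to 1089, 1592 and 1632 CPM against 576 CPM. Macrophage markers summed to 258.2, 314.5 and 288.7 CPM against 139.5 CPM. Of the 7 markers 6 were called higher under tamoxifen in WT and in disease mice of this cohort. The 5 cartilage markers summed to 2.57 to 6.16 CPM in WT, 27.2 to 59.4 CPM in WT treated and 1.39 to 34.9 CPM in disease treated mice. The 5 tendon markers summed to 709 to 1648 CPM in WT treated mice, to 493, 809 and 754 CPM in disease treated mice 1 to 3 and to 116 CPM in mouse 4.

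In cohort F, disease treated mouse 2 had 4.42 CPM of *S100b* and 294 CPM of the bone markers, while the other 3 treated mice had 0.310 to 0.828 CPM and 18.3 to 24.5 CPM. Its tendon sum of 435 CPM was also the highest of the 4 treated mice, as were its osteoclast sum of 148 CPM and fibroblast sum of 751 CPM. Untreated disease mouse 4 of cohort F had a higher tendon sum, 1045 CPM, beside 2.42 CPM of *S100b*. Untreated disease mice of cohort G had tendon sums of 255 to 485 CPM beside 0.751 to 2.49 CPM of *S100b*. The 5 Schwann cell markers, which include *Sox10*, were not raised in the mice high in *S100b*: their sum was 56.1 to 90.7 CPM in WT treated and 67.2 to 101 CPM in WT mice of cohort G, and 39.6 CPM in disease treated mouse 2 of cohort F. Among the untreated mice and those low in bone markers, *S100b* stayed between 0.310 and 2.53 CPM. In these 20 mice low values of *S100b* tended to go with low Schwann cell sums, from 0.310 CPM beside 33.6 CPM in disease treated mouse 3 of cohort F to 2.49 CPM beside 136 CPM in disease mouse 3 of cohort G. The Schwann cell sums had the order of *S100b* over the WT mice of each cohort and the disease mice of cohort G. Over the disease mice of cohort F they did not. The 5 adipocyte markers, such as *Adipoq*, had the same order as *S100b* over the disease mice of cohort G, at 39.2, 29.7, 217 and 12.8 CPM. Over the WT mice of cohort G, at 26.5, 10.5, 15.6 and 98.7 CPM, mice 1 and 3 stood in the other order than for *S100b*. The adipocyte markers also did not have the order of *S100b* over the WT mice or the disease mice of cohort F. The part of bone, cartilage, tendon, Schwann and fat cells, and of osteoclasts, fibroblasts and macrophages, in the level of *S100b* was not tested.

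**Figure D3:**
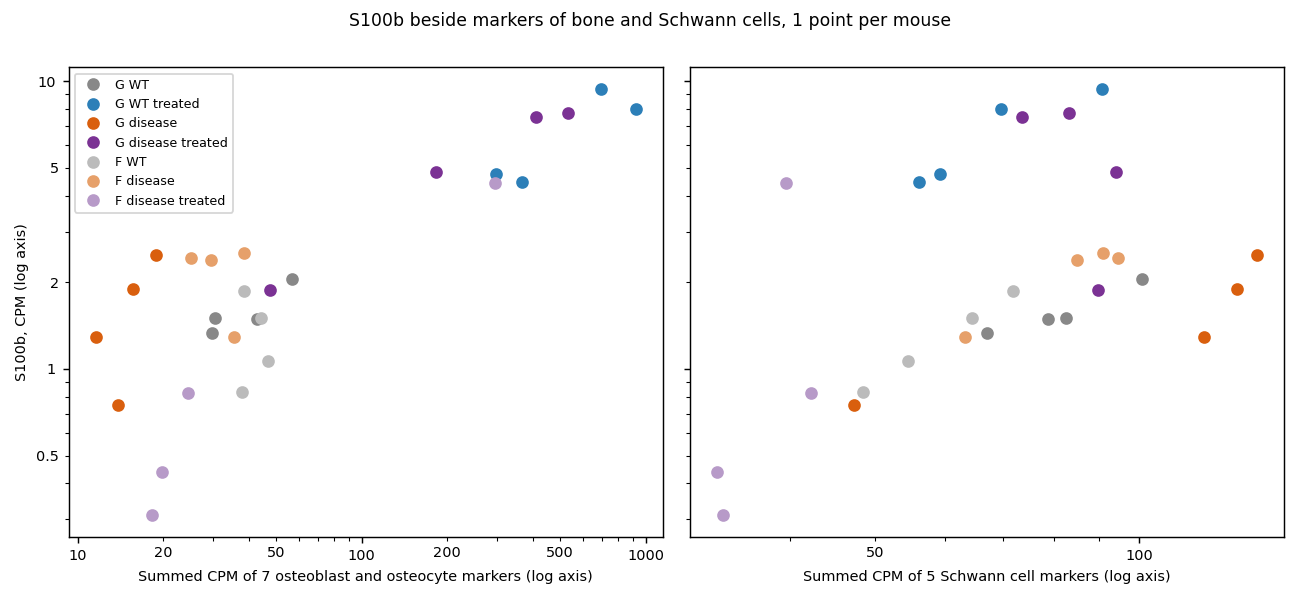
*S100b* in CPM against the summed CPM of 7 osteoblast and osteocyte markers (left) and of 5 Schwann cell markers (right), on log axes, for each of 28 mice. The 8 mice above 4 CPM of *S100b* are all treated and are the 8 mice above 180 CPM of bone markers, and they lie above the other 20 mice on the right, in which *S100b* tends to be higher where the Schwann cell sum is higher.

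*S100a6*, *S100a10* and *S100a11* rose in the WT treated mice, in which 7 of 10 macrophage markers, 4 of 8 fibroblast markers, 5 of 5 tendon markers and 5 of 6 osteoclast markers were also called higher. The macrophage markers summed to 206 to 398 CPM in WT treated mice and the fibroblast markers to 1289 to 1828 CPM, in each case above all WT mice. Their part in the rise of these genes was not tested.

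In cohort F, untreated Bin1 mck-/- mice were compared with WT. *S100a6*, *S100a10* and *S100a13* rose, 3 of the 7 genes tested, while 1.99% of all genes were called higher. These are 3 of the 4 genes that rose in Dnm2 S619L/+ mice of the other cohort. The share of all genes called higher in both cohorts was not computed. All 7 genes tested had a log2 fold change above 0, and the median over all genes was 0.01.

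*S100a4* was at 1.29, 1.70, 2.91 and 1.72 CPM in WT and at 7.78, 7.49, 3.48 and 21.0 CPM in disease mice, a log2 fold change of 2.35, again as a description. *S100a10* was at 20.0, 15.2, 18.0 and 20.3 CPM in WT and at 44.7, 45.9, 31.4 and 66.7 CPM in disease mice, a log2 fold change of 1.36 ± 0.27 (adjusted p = 0.028, edgeR). Disease mouse 4 was the highest for both genes and mouse 3 the lowest, and neither gene overlapped between groups.

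*S100a13* was at 10.1, 9.81, 11.3 and 11.4 CPM in WT and at 19.2, 21.3, 14.2 and 28.5 CPM in disease mice, a log2 fold change of 0.97 ± 0.20 (adjusted p = 0.025, edgeR). *S100a6* was at 34.3, 31.6, 33.1 and 45.0 CPM in WT and at 60.9, 62.1, 54.9 and 96.3 CPM in disease mice, a log2 fold change of 0.93 ± 0.20 (adjusted p = 0.032, edgeR). The order of the disease mice was alike for the 4 genes at both ends, with mouse 4 highest and mouse 3 lowest. In the disease mice of cohort F 5 of 10 macrophage markers were called higher, with sums of 60.2 to 93.9 CPM in WT and 198, 274, 178 and 365 CPM in disease mice 1 to 4. The 8 fibroblast markers, none of them called, summed to 344 to 412 CPM in WT and 633 to 909 CPM in disease mice. Of 4 adipocyte markers that passed the filter 3 were called higher, with sums over the list of 2.88 to 5.48 CPM and 27.3 to 91.3 CPM, and 2 of 10 muscle fiber markers were called lower. The part of these cells in the S100 changes was not tested.

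All 3 calls in cohort F were lost, though no sign turned, when any of the 4 WT mice or disease mouse 1, 2 or 4 was left out. Calls over all genes fell in these fits too, from 388 to between 18 and 207. With no filter on low counts *S100a10* was not called. The log2 fold change of *S100a4* was 1.68 without disease mouse 4.

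The other genes of cohort F were not called between disease and WT mice. *S100a16* was at 39.2, 38.8, 46.6 and 54.7 CPM in WT and at 60.9, 61.0, 48.7 and 69.2 CPM in disease mice, overlapping through disease mouse 3, with a log2 fold change of 0.42 ± 0.18 (adjusted p = 0.20, edgeR). *S100a11* was at 6.93, 7.79, 6.56 and 9.91 CPM in WT and at 9.97, 11.6, 9.21 and 17.6 CPM in disease mice, again overlapping through mouse 3 alone, with a log2 fold change of 0.63 ± 0.25 (adjusted p = 0.17, edgeR). Both had an unadjusted p under 0.05. *S100b* was at 0.835 to 1.87 CPM in WT and at 1.29 to 2.53 CPM in disease mice, and its interval ran from -0.69 to 2.06.

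Under tamoxifen in Bin1 mck-/- mice none of the 7 genes tested was called by edgeR, where 3.13% of all genes were, and DESeq2 called none either. At an unadjusted p under 0.05 edgeR had 1 gene, *S100a13*, with a log2 fold change of -0.42 and an interval from -0.84 to -0.01. *S100a6* at -0.42, *S100a10* at -0.42, *S100a11* at -0.43 and *S100b* at -0.48 were below 0 as well, with intervals that reach down to -0.84, -0.99, -0.96 and -1.86. Without disease treated mouse 2, the one high in bone markers, *S100b* was called lower, at -1.93. That fit called 1253 of all 15097 genes, against 464 with all mice. *S100a4*, described only, was at 4.44, 7.73, 4.27 and 10.4 CPM in the treated mice, within the range of the untreated disease mice, a log2 fold change of -0.56. It turned to 0.10 without disease mouse 4.

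Disease treated mice of cohort F were set against the same WT mice. None of the 7 genes was called by edgeR, with 0.849% of all genes called and 3 genes below an unadjusted p of 0.05. DESeq2 called *S100a10*, among 544 of all 14841 genes, against 126 by edgeR. *S100a10* had a log2 fold change of 0.94 ± 0.27 and an interval from 0.36 to 1.52. It was called by edgeR without disease treated mouse 3, the lowest of the group at 18.9 CPM, where 266 of all 15191 genes were called. *S100a13* at 0.54 ± 0.20 and *S100a6* at 0.51 ± 0.20 had intervals from 0.13 to 0.96 and from 0.08 to 0.94. *S100a4* was 1.79 higher on the log2 scale, as a description.

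*S100a8* and *S100a9* encode the subunits of calprotectin, which neutrophils store in their cytosol, and were chosen for moving with neutrophil genes. Their sum was under 1 CPM in 20 of 28 mice. The highest was disease treated mouse 4 of cohort F, with 3.07 CPM of *S100a8* from 84 reads and 7.74 CPM of *S100a9* from 212 reads. WT treated mouse 3 of cohort G had 1.55 and 1.98 CPM, and disease mouse 3 of cohort F had 0.981 and 1.42 CPM. These 3 mice were also the 3 highest for the sum of 10 neutrophil markers, at 5.19, 5.08 and 3.57 CPM, and 2.45 CPM was the highest in the other 25 mice.

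*Csf3r*, the receptor of the granulocyte growth factor, was the only one of the 10 neutrophil markers to pass the filter, and reached 2.06 CPM. Its highest value was in a disease mouse of cohort G. Of the granule protein genes *Ngp* reached 1.88 CPM, *Ltf* 1.02 CPM, *Retnlg* 0.913 CPM and *Camp* 0.475 CPM in the highest mouse of each. *Ly6g*, a defining surface marker of mouse neutrophils, reached 0.0395 CPM at most. The 6 granulocyte precursor markers, such as *Mpo* and *Elane*, did not exceed 1 CPM in any mouse.

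**Figure D4:**
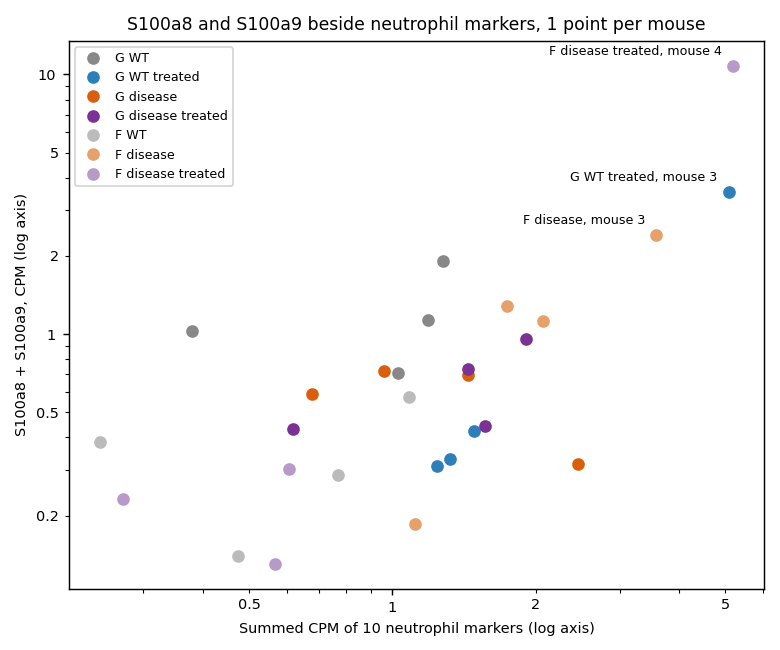
Sum of *S100a8* and *S100a9* against the sum of 10 neutrophil markers, both in CPM on log axes, for each of 28 mice. The 3 mice named in the plot are the 3 highest on each axis, and the other 25 form a cloud below 2 CPM of *S100a8* and *S100a9*.

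Below these 3 mice the genes did not keep 1 order. The next highest in the S100 sum, WT mouse 1 of cohort G at 1.91 CPM, was 13th in the neutrophil sum, and disease mouse 4 of cohort G, the fourth in the neutrophil sum, had only 0.316 CPM of both genes together. *S100a9* exceeded *S100a8* in 19 mice, and 1 mouse had no *S100a8* read and 1 other no *S100a9* read. The pair came apart in disease mice of cohort F, where mouse 4 had 7 reads of *S100a8* and 0 of *S100a9*, while mouse 2 had 5 and 35.

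Neither gene was called in any comparison. *S100a9* in disease treated against WT mice of cohort F had a log2 fold change of 2.68, with an interval from -0.51 to 5.87, and -1.14 without disease treated mouse 4. For tamoxifen in WT mice of cohort G it had -0.36, and without WT treated mouse 3 *S100a8* and *S100a9* were called lower, at -1.31 and -1.71. Each of these values was thus moved by the single mouse rich in neutrophil genes.

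Of the other family genes on the list fixed for this work, 8 of 9 are in the tables and 2 passed the filter. *S100a1*, which regulates calcium release and uptake in muscle and heart, was at 111, 124, 133 and 102 CPM in WT and at 71.9, 70.1, 65.1 and 54.0 CPM in WT treated mice of cohort G. It fell with a log2 fold change of -0.85 ± 0.14 (adjusted p = 0.00062, edgeR), opposite in sign to the 4 genes that rose there. The 10 muscle fiber markers, 1 of them called lower, summed to 132000 to 159300 CPM in these WT mice and to 103400 to 117000 CPM in the WT treated mice, with a median log2 fold change of -0.43. In disease mice it fell from 104 to 165 CPM to 72.1 to 90.3 CPM under tamoxifen, a log2 fold change of -0.73 ± 0.14 (adjusted p = 0.0063, edgeR). With library sizes alone these values were -0.56 and -0.64, and in a fit of only the groups compared the second was -0.69 and not called. In disease treated against WT mice of cohort G *S100a1* was lower by 0.56 ± 0.14 on the log2 scale, but by 0.20 and not called with library sizes alone, beside a median of -0.45 for the 10 fiber markers, 5 of which were called lower. The part of fiber content in these values was not tested. *S100a1* was not called for Dnm2 disease against WT (0.17 ± 0.14) or in any comparison of cohort F. *S100a3*, in the cluster next to *S100a4*, had at most 16 reads in a mouse, and the remaining family genes stayed under 1 CPM.

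Partners and receptors of S100 proteins were followed as a list of 15 genes, of which 14 passed the filter in each cohort. For Dnm2 disease against WT 1868 of all 15439 genes were called higher and 1514 lower. Of the 14 partners 6 rose and 1 fell. The annexins that bind *S100a10* and *S100a11* proteins were among them, *Anxa2* at a log2 fold change of 1.74 ± 0.30 and *Anxa1* at 1.55 ± 0.27 (adjusted p = 0.0012 each, edgeR). *Tlr4*, a receptor for calprotectin, rose by 1.59 ± 0.27 on the log2 scale, and *Ppfibp1*, a liprin that binds *S100a4* protein, by 0.87 ± 0.13. *Ahnak*, a large scaffold of the *S100a10* and annexin A2 complex, rose by 0.74 ± 0.19, and *Anxa6* by 0.31 ± 0.10. *Fgf1*, the growth factor released with *S100a13* protein, fell by 0.53 on the log2 scale. The last 3 calls were less firm. That of *Ahnak* was lost in a fit of only the groups compared, and that of *Anxa6* there, with no filter, with the replicate block and without any 1 of 8 mice. The call of *Fgf1* was lost with no filter, without any 1 of 9 mice, and with library sizes alone, at -0.25.

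For tamoxifen in WT mice 5 of the 14 rose and 1 fell, where 2441 of all 15439 genes were called higher and 1832 lower. *Anxa1* rose by 1.87 ± 0.27, *Anxa2* by 1.30 ± 0.30, *Tlr4* by 1.17 ± 0.26 and *Ppfibp1* by 1.03 ± 0.13 on the log2 scale. *Ager*, the receptor for advanced glycation end products that binds several S100 proteins, rose by 1.28 ± 0.39 from 0.395 to 0.781 CPM in WT to 1.1 to 1.71 CPM in WT treated mice, and was not called without WT mouse 2 or 3 or WT treated mouse 2. *Cacybp*, the calcyclin-binding protein, fell by 0.40 on the log2 scale, and by 0.12, not called, with library sizes alone. In disease mice under tamoxifen *Myh9*, the non-muscle myosin bound by *S100a4* protein, rose by 0.70 ± 0.17 and *Cacybp* fell by 0.40, and no annexin was called. The call of *Myh9* was lost in a fit of only the groups compared and without disease mouse 2 or disease treated mouse 2 or 3. That of *Cacybp* was lost in the same fit, with no filter, with the replicate block, without any 1 of 6 mice, and with library sizes alone, at -0.32.

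In disease treated against WT mice of cohort G 4 of the 14 rose, *Anxa1*, *Anxa2*, *Tlr4* and *Ppfibp1*, and *Cd36* and *Cacybp* fell. Of all 15439 genes 2435 were called higher and 2026 lower. With library sizes alone *Cacybp* was at 0.03 and *Cd36* at -0.13 in this comparison, and neither was called in a fit of only the groups compared. The call of *Cd36* was also lost without WT mouse 3 or 4 or disease treated mouse 1 or 3. That of *Cacybp* was also lost with no filter, with the replicate block and without any WT mouse, WT treated mouse 4 or disease treated mouse 2 or 3. In cohort F 2 of the 14 rose in disease mice, *Anxa2* by 1.73 ± 0.30 and *Anxa1* by 1.59 ± 0.34, where 1.99% of all genes were called higher. The call of *Anxa1* was lost with no filter and without any 1 of 8 mice, and that of *Anxa2* without WT mouse 6 or 8. Under tamoxifen *Bsg*, which encodes basigin, a receptor for *S100a9* protein, rose by 0.64 ± 0.15 and *Sugt1* by 0.48 ± 0.12, and none was called between disease treated and WT mice. Both calls were lost in a fit of only the groups compared, with the replicate block and without any 1 of 9 mice for *Sugt1* and 6 for *Bsg*, and that of *Sugt1* also with library sizes alone, at 0.30.

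Genes with the most similar profile were sought for *S100a4*, *S100a6*, *S100a10* and *S100b* by the root mean square difference of log2 CPM, centred within each cohort, over 28 mice and 14571 genes. For *S100a6* they were *Atp6ap2* at 0.21, *Lmna*, *Sh3bgrl3*, *S100a10* at 0.25 and *Eid1*. For *S100a10* they included *S100a6* at 0.25, *Plp2*, *Lmna* and *Cyb5r3*, so each of these 2 genes is in the list of the other. For *S100a4* the nearest was *Cpne2* at 0.57, followed by *Fst*, *Anxa4*, *Uchl1* and *Tnfrsf23*. For *S100b* it was *Adcy3* at 0.46, followed by *Dchs1*, *Fndc1*, *Ccdc80* and *Mrgprf*. *S100a8* has no such list, since it did not pass the filter in cohort F.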

How the data were processed

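TA muscle RNA of 28 mice was sequenced, and the labels place 4 mice in each of 7 groups. The authors deposited raw counts of reads per Ensembl gene for each mouse, without normalization. The submitters' processing notes name bcl2fastq 2.20.0.422, cutadapt 1.10, Bowtie 1.2.2, STAR 2.5.3, HTSeq 0.6.1p1 and the build mm39, with no role or order. Libraries were strand-specific and polyadenylated, and the strand setting of the counting is not given in the sources used here. In cohort F, 4 lines that name no gene held 22.0% to 30.8% of a mouse's counts and were removed before any scaling. Each count column was matched to 1 mouse by its label. Of the gene identifiers, 52083 in each cohort had a symbol in the reference tables. These tables and the promoter windows are of GRCm38, so no coordinates of the count tables are given. Reads of *S100a11* can be shared with its pseudogene *S100a11-ps*.

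Each cohort was fitted alone with edgeR 4.0.16 in R 4.3.3: filterByExpr, TMM, robust quasi-likelihood test, prior count 2, Benjamini-Hochberg adjustment over 15439 genes in cohort G and 14841 in cohort F. Standard errors and intervals were derived from the log2 fold change, its F statistic and its degrees of freedom. The 8 contrasts are those of the design, and *S100a4* was left out of the counts of calls in all of them, also between untreated disease and WT mice, where a test had been planned. The genes named are the 9 members, the family genes and the partners called or above 1 CPM, the markers by summed CPM, and up to 5 neighbours by profile. Some genes of the Schwann cell list and a neighbour are not reported here, and the list was summed without those genes. The S100 genes and all lists were chosen with earlier results of these data known. The scripts were tested on simulated data with 200 changed genes.

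No 2 libraries of a group agreed within sampling noise (lowest chi-square divided by genes 14.4). The labels do not say whether samples share a litter, so p-values measure the spread between these mice. The deviations of same-numbered mice from their group means correlated between -0.33 and 0.34, and 10 of 28 such pairs passed 0.1, so the numbers were not taken as pairs. Alternatives were RLE normalization, DESeq2 1.42.0, no filter, the study's filter (over 10 reads in at least 90% of mice), a fit restricted to the groups compared, a block for the replicate number, and each mouse left out. Library sizes without TMM factors were added after seeing the data.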

Additional observations from a re-analysis of the deposited data

Results flagged for a closer look

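A mouse far from the other 3 of its group was found in 7 of 63 sets of a gene and a group, by the gap to its nearest neighbour over the range of the group (Dixon's criterion). Chance gives about 1 in 20 such sets, and sets that share a mouse are not independent. *S100a8* in WT treated mice of cohort G had 1.55 CPM in mouse 3, and *S100a9* 1.98 CPM in the same mouse. *S100a8* in disease mice of cohort F had 0.981 CPM in mouse 3. In disease treated mice of cohort F *S100a8* had 3.07 CPM and *S100a9* 7.74 CPM, both in mouse 4. *S100b* had 4.42 CPM in disease treated mouse 2 of cohort F, the mouse with 294 CPM of bone markers, and in disease mice of that cohort it had a low value of 1.29 CPM in mouse 2. These values stand beside the marker sums given above, and the cause of each was not tested.

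The tamoxifen response of *S100a4* differed between genotypes of cohort G by -3.33 on the log2 scale. This difference was among the values for which the gene was chosen and is given as a description.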

How the results depend on the processing

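The number of genes called stayed within 1.5 times of the value reported for Dnm2 disease against WT, tamoxifen in WT, Dnm2 disease treated against WT and Bin1 disease against WT under all alternatives other than leaving out a mouse. For tamoxifen in Dnm2 disease it was 3, and 0 in a fit of only the groups compared, where 30 of all 14310 genes were called. DESeq2 gave 3 in place of 0 for the interaction and 1 in place of 0 for Bin1 disease treated against WT. Over all genes it called 327 in place of 40 and 544 in place of 126. Leaving out a mouse gave 4 to 5 genes for Dnm2 disease against WT, 3 to 6 for tamoxifen in WT, 1 to 4 for tamoxifen in Dnm2 disease, 0 to 3 for the interaction, 5 to 6 for Dnm2 disease treated against WT, 0 to 3 for Bin1 disease against WT, and 0 to 1 for each of the other 2 comparisons of cohort F. WT treated mouse 3 (tamoxifen in WT, 6 genes) and disease mouse 3 of cohort G (interaction, 3 genes) raised these counts when left out, as did disease mouse 3 for tamoxifen in Dnm2 disease and disease treated mouse 2 and mouse 3 of cohort F. Calls over all genes also moved with a mouse left out, between 1 and 293 for the interaction and between 18 and 759 for Bin1 disease against WT. Where a group is left with 3 mice, fewer samples enter the fit. The cause of other changes was not tested.

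With the replicate block the counts were 4 for Dnm2 disease against WT, 4 for tamoxifen in WT, 2 for tamoxifen in Dnm2 disease, 0 for the interaction, 5 for Dnm2 disease treated against WT and 0 for tamoxifen in Bin1 disease. WT mice of cohort F share no numbers with the other groups, so no block was fitted for the 2 comparisons with them.

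Values that changed sign were of genes not called or, for *S100a4*, described only, with 1 exception: *Cacybp* in Dnm2 disease treated against WT, at 0.025 with library sizes alone. *S100b* for Dnm2 disease against WT was -0.0045 in a fit of only the groups compared, -0.14 with the replicate block and -0.25 to 0.24 with a mouse left out. *S100a8* for tamoxifen in WT was 0.18 with library sizes alone, 0.039 by DESeq2 and -1.31 to 0.40 with a mouse left out. *S100a16* for tamoxifen in WT was 0.21 and *S100a9* for tamoxifen in Dnm2 disease 0.055 with library sizes alone, the latter -0.31 to 0.14 with a mouse left out. *S100a9* for tamoxifen in Bin1 disease was -1.45 with the replicate block. With a mouse left out, the ranges were -2.63 to 1.59 for that value, -1.14 to 3.08 for *S100a9* in Bin1 disease treated against WT, -0.11 to 1.61 for *S100a8* in the interaction, -0.85 to 0.10 for *S100a4* and -0.31 to 0.0069 for *S100a16* under tamoxifen in Bin1 disease, and -0.077 to 0.34 for *S100a11* and -1.25 to 0.52 for *S100b* in Bin1 disease treated against WT. *S100a8* and *S100a9*, with 0 to 212 reads in a mouse, are limited by depth.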
